A study of Mus musculus with 8 samples.

Results

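*Alpl*, *Chst3*, *Sdc4*, *Adgrg1*, *Sorcs2*, *Nedd9*, *Cplx2* and *Ccdc97* are 8 mouse genes outside the B-lymphoid program, of 27657 genes that had an ATAC-seq peak. They were chosen by the authors' deposited fold changes between genotypes in MPP3 cells, as genes with strongly lost sites in the absence of EBF1. Those fold changes were not used here, so the loss itself was not examined, and the account below is of where the peaks of the 8 genes lie, how high they are and which sequences they hold. A peak belonged to a gene when its center lay in the gene or up to 20 kb upstream or 10 kb downstream of it, with the closest transcript deciding between neighbors. For *Sdc4*, a stretch of chr2 around the 3' end of the gene was added. In all, 86 of 87642 MPP3 peaks and 71 of 86952 MPP4 peaks belonged to the 8 genes.

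MPP3 and MPP4 cells are multipotent progenitors of the bone marrow, biased to myeloid and to lymphoid output, respectively. ATAC-seq reads accessible DNA by the insertions of the Tn5 transposase. The 8 libraries were made from 5000 sorted cells each, with 2 per genotype in each population, and the planned depth was 50 M reads. By the labels, MPP3 cells were LSK CD150- CD48+, and MPP4 cells were also Flt3+. All mice carried the floxed allele, Ebf1 fl/fl, on a C57BL/6 background. The label Tie2Cre +/+, without Cre, gave the *Ebf1* WT group and Tie2Cre +/cre the *Ebf1* KO group. The study's results text gives the WT mice wild-type *Ebf1* alleles with Tie2Cre, and its methods name floxed or Cre-carrying littermates. The Tie2 promoter also drives Cre in endothelial cells. The MPP3 mice were 8 weeks old, apart from 1 KO mouse of 9 weeks. In the MPP4 groups the WT mice were 9 and the KO mice 8 weeks old, so age and genotype cannot be told apart there, and 1 of these WT mice was male.

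The deposited level of a peak is 1 mean log2 CPM (counts scaled to the size of each library, in log2) over the 4 libraries of a cell type, with both genotypes in it. No replicate error can therefore be given for any level, and the levels allow no test between samples. The authors' own test between genotypes was not used. MPP3 and MPP4 peaks were normalized in separate tables with their own peak edges, so their levels are set side by side without a test. In bulk cells, a lower mean cannot be told apart from fewer cells with the site open. The peaks of each population are the union over the genotypes, so a listed peak may come from WT cells, KO cells or both. Of 6 progenitor markers, 5 had a peak within 1 kb of a transcript start in MPP3 cells and 6 in MPP4 cells, with *Ly6a* lacking it in MPP3. Start peaks were also present for 2 of 2 B cell markers in MPP3 and 0 of 2 in MPP4, for 2 of 3 T cell markers in both, for 2 of 3 granulocyte markers in MPP3 and 1 of 3 in MPP4, for 1 of 3 erythroid markers in both, and for 2 of 2 stem cell and 3 of 3 endothelial markers in both. A start peak shows accessibility and not expression, so these counts do not measure other cells in the sorted samples.

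EBF1 is a transcription factor that specifies the B lineage and can open chromatin at its own binding sites, together with E2A, an E protein that binds E-boxes. The 8 genes are not among the B program genes used for comparison below. *Alpl* encodes the tissue-nonspecific alkaline phosphatase, *Chst3* a sulfotransferase of chondroitin chains and *Sdc4* the heparan sulfate proteoglycan syndecan-4. *Adgrg1* encodes the adhesion G protein-coupled receptor GPR56, which is expressed by hematopoietic stem cells, and *Sorcs2* a sorting receptor of the VPS10 family. *Nedd9* encodes a Cas family scaffold of integrin signaling, *Cplx2* a complexin that binds SNARE complexes in vesicle fusion, and *Ccdc97* a coiled-coil domain protein.

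The sequences below show the EBF1 consensus in its own context in 6 of the 8 genes, 1 peak per gene, with 2 peaks added after the values were seen. The added ones are the *Alpl* peak whose level differed most between the tables, and the start peak of *Sdc4*, which lies at an internal start. The EBF1 consensus searched was TCCCNNGGG or CCCNNGGGA and the E-box was CAGGTG or CAGCTG, on both strands, and matches that overlapped were counted once. Capitals mark the matches to either consensus. The letters are of GRCm38 (mm10), and at *Adgrg1*, where the match lies in a UTR, only the nearest bases are given. *Cplx2* and *Sorcs2* have no sequence here because none of their MPP3 peaks held the EBF1 consensus.
*Alpl* intron, EBF1 consensus, chr4:137748757-137749056, plus strand: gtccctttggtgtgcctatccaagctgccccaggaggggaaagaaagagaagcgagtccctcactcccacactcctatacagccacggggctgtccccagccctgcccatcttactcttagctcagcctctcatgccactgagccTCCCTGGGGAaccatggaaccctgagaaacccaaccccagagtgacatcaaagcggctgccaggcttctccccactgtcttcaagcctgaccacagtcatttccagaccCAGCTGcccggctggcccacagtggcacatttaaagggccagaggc
*Alpl* intron, largest level difference between tables, chr4:137788473-137788772, plus strand: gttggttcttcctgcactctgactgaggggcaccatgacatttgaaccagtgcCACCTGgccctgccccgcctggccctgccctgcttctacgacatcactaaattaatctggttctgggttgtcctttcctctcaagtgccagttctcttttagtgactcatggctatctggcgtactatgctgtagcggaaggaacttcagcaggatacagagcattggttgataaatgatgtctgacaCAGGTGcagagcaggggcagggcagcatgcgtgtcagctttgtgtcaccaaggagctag
*Chst3* intron, chr10:60191829-60192128, plus strand: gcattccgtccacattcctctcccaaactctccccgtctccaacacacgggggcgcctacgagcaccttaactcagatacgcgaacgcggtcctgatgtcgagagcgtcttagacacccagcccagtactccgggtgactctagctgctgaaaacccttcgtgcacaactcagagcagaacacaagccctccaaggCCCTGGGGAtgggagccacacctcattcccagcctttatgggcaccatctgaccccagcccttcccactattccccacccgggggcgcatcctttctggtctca
*Sdc4* downstream, chr2:164422699-164422998, plus strand: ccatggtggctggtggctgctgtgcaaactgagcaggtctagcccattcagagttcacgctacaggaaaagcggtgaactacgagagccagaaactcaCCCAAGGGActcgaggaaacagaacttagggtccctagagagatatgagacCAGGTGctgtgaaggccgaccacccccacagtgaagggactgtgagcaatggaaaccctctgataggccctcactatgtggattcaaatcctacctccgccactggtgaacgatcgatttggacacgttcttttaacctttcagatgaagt
*Sdc4* start, chr2:164443187-164443397, plus strand: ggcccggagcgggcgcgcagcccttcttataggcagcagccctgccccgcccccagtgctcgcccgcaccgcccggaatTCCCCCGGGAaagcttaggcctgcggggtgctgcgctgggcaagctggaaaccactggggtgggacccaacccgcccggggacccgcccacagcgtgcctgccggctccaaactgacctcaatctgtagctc
*Adgrg1* start, chr8:94977118-94977146, plus strand: gatcccggccTCCCACGGGgcagctttta
*Nedd9* intron, chr13:41427127-41427426, plus strand: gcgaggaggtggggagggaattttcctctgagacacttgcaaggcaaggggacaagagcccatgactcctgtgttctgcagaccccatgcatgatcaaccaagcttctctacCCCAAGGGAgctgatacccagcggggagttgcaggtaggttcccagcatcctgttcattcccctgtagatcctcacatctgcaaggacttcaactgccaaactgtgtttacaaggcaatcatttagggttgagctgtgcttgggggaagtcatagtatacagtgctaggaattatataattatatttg
*Ccdc97* downstream, chr7:25710050-25710282, plus strand: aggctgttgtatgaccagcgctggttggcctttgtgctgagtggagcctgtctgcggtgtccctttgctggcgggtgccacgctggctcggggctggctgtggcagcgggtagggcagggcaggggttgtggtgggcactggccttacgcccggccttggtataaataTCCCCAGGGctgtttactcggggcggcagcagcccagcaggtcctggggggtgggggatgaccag

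Among the 86 MPP3 peaks, 9 held the EBF1 consensus, which is 10.5% (exact 95% interval 4.90 to 18.9%), beside 7.46% of all MPP3 peaks. The intervals cover counting error only, and peaks of 1 gene are not independent. The choice of genes by sites lost in the absence of EBF1 can also favor this share. *Alpl*, *Chst3* and *Sdc4* had 2 such peaks each, and *Adgrg1*, *Nedd9* and *Ccdc97* had 1 each. With both flanking bases required, 3 peaks remained (3.49%, beside 1.14% of all), namely both *Alpl* peaks and the *Sdc4* start peak. A match is a description of the letters and does not show that EBF1 was bound.

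The 9 peaks held 10 matches, and their position relative to MPP4 peaks differed from gene to gene. A group of 4 matches lay in MPP3 peaks without any MPP4 peak, in *Alpl*, *Chst3*, *Nedd9* and at the *Sdc4* start. A further 2 lay in peaks that had an MPP4 counterpart but beyond its edges, as for the *Chst3* match printed above and the upper-case CCCAAGGGA of the *Sdc4* downstream peak. The remaining 4 lay inside an MPP4 peak, in *Alpl*, *Adgrg1*, *Ccdc97* and at the *Sdc4* downstream peak. Thus 4 of the 26 MPP3 peaks without an MPP4 peak held the consensus (15.4%, beside 6.38% of all such peaks), and 5 of the 60 shared ones did (8.33%, beside 7.81%). With counts of 4 and 5, the order of these shares was not tested.

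E-boxes were present in 47 of the 86 MPP3 peaks, 54.7% (43.5 to 65.4%), beside 38.7% of all MPP3 peaks. Of the MPP4 peaks, 42 of 71 held one, 59.2% beside 40.0%. Of the 47 E-box peaks in MPP3 cells, 21 were in *Sorcs2*, among its 33 peaks. *Alpl* and *Adgrg1* had 6 each, whereas *Nedd9* had 1 among its 13 peaks. *Sorcs2* thus weighs heavily in the share of the 8 genes, and the share without it was not taken. Peaks of 1 gene are not independent, and the choice of genes by lost MPP3 sites can also favor the E-box share. All 5 *Chst3* peaks held an E-box. An EBF1 match and an E-box shared an MPP3 peak at *Alpl* (2 peaks, 41 and 99 bases apart) and *Chst3* (41 and 209 bases). The same held at *Sdc4* (42 bases at the downstream peak) and *Adgrg1* (74 bases). No E-box stood in the EBF1 peaks of *Nedd9* and *Ccdc97* or in the *Sdc4* start peak. How often both stand in 1 peak over all MPP3 peaks was not counted, so the pairs are only a description. The peaks of the 8 genes were also longer than all MPP3 peaks, with a median of 301.5 against 273 bp, and their median GC content was 55.1% against 52.5%. The part of length and GC content in these shares was not tested.

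Other consensus sequences were counted in the same way. The AP-1 consensus TGANTCA was in 15 of the 86 MPP3 peaks, 17.4% (10.1 to 27.1%), beside 11.0% of all. The GATA consensus AGATAA was in 3 peaks, 3.49% (0.725 to 9.86%), beside 11.5%. For the ETS consensus GGAAGT the share was 29.1% beside 36.3%, for the RUNX consensus TGTGGT 34.9% beside 30.8%, and for the C/EBP consensus TTGCNNAA 10.5% beside 11.7%. The shares for AP-1, RUNX, ETS and C/EBP over all peaks lay within the counting intervals of the 8 genes. That for GATA lay above its interval, which rests on 3 peaks. In the MPP4 peaks the reading turned for these 2 sequences. AP-1 was at 19.7% (11.2 to 30.9%), beside 11.0% of all, below its interval. GATA was at 5.63% (1.56 to 13.8%), beside 9.85%, within its interval. Peaks of 1 gene are not independent, so the intervals serve as no test.

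**Figure D1:**
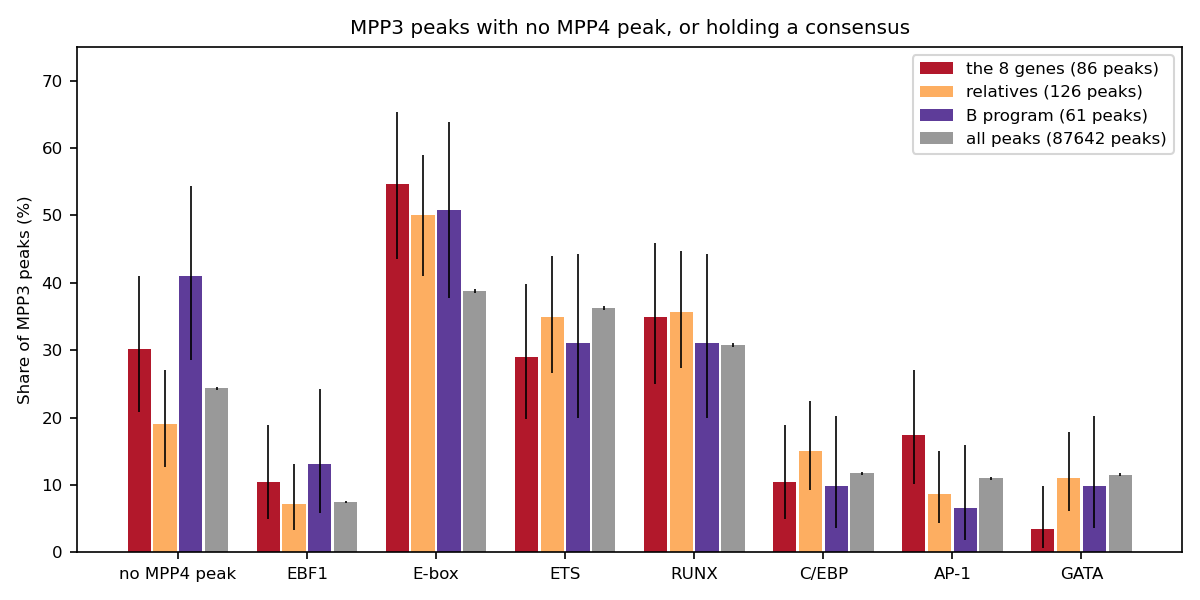
Share of MPP3 peaks, in percent, that have no MPP4 peak or that hold a consensus sequence, for the 8 genes, 30 relatives of the same gene families, 17 B program genes and all peaks. Lines are exact 95% intervals for counting error. The 8 genes stand at 54.7% for the E-box against 38.7% of all peaks, and at 3.49% for GATA against 11.5%. Of their 47 E-box peaks, 21 are in *Sorcs2*, and the GATA share rests on 3 peaks.

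Peaks that only MPP3 cells had were the next measure. Of the 86 MPP3 peaks, 26 shared no base with an MPP4 peak, 30.2% (20.8 to 41.1%), beside 24.3% of all MPP3 peaks. *Nedd9* had 8 of them, *Sorcs2* 7, *Alpl* 4, *Adgrg1* 3, and *Sdc4*, *Chst3*, *Cplx2* and *Ccdc97* 1 each. In the reverse direction, 11 of 71 MPP4 peaks had no MPP3 peak, 15.5% (8.00 to 26.0%), beside 23.3% of all, and they were in *Sorcs2* (8), *Alpl* (2) and *Chst3* (1).

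Weak peaks are easily listed in 1 population and missed in the other, so the share was also taken over peaks with a level of at least 2 log2 CPM. Here 14 of 61 MPP3 peaks of the 8 genes had no MPP4 peak, 23.0% (13.2 to 35.5%), beside 6.96% of all MPP3 peaks at that level. They were spread over 7 genes, with 4 in *Nedd9*, 3 each in *Alpl* and *Adgrg1*, and 1 each in *Sdc4*, *Chst3*, *Cplx2* and *Ccdc97*, and *Sorcs2* had none. The genes were chosen by MPP3 peaks, so a surplus of peaks in MPP3 cells is in part set by the choice and is given as a description. The median level of the unshared MPP3 peaks was 2.04 log2 CPM, beside 1.21 for all unshared MPP3 peaks, and that of the shared ones 3.05, beside 2.68.

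For comparison, 30 genes of the same families (syndecans, sulfotransferases, complexins, Cas proteins, VPS10 receptors, adhesion receptors and alkaline phosphatases) had 126 MPP3 peaks. Of these, 24 had no MPP4 peak, 19.0% (12.6 to 27.0%), and 9 held the EBF1 consensus, 7.14%. The 17 B program genes, such as *Pax5* and *Blnk*, had 61 MPP3 peaks, of which 25 had no MPP4 peak, 41.0% (28.6 to 54.3%), and 8 held the EBF1 consensus, 13.1%. On both measures the 8 genes lay between the lists, and their counting intervals overlapped those of both lists. Their choice by MPP3 sites lost in the absence of EBF1 can favor both shares, so this order is only a description. The E-box share was 50% in the relatives and 50.8% in the B program genes, near the 54.7% of the 8 genes.

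**Figure D2:**
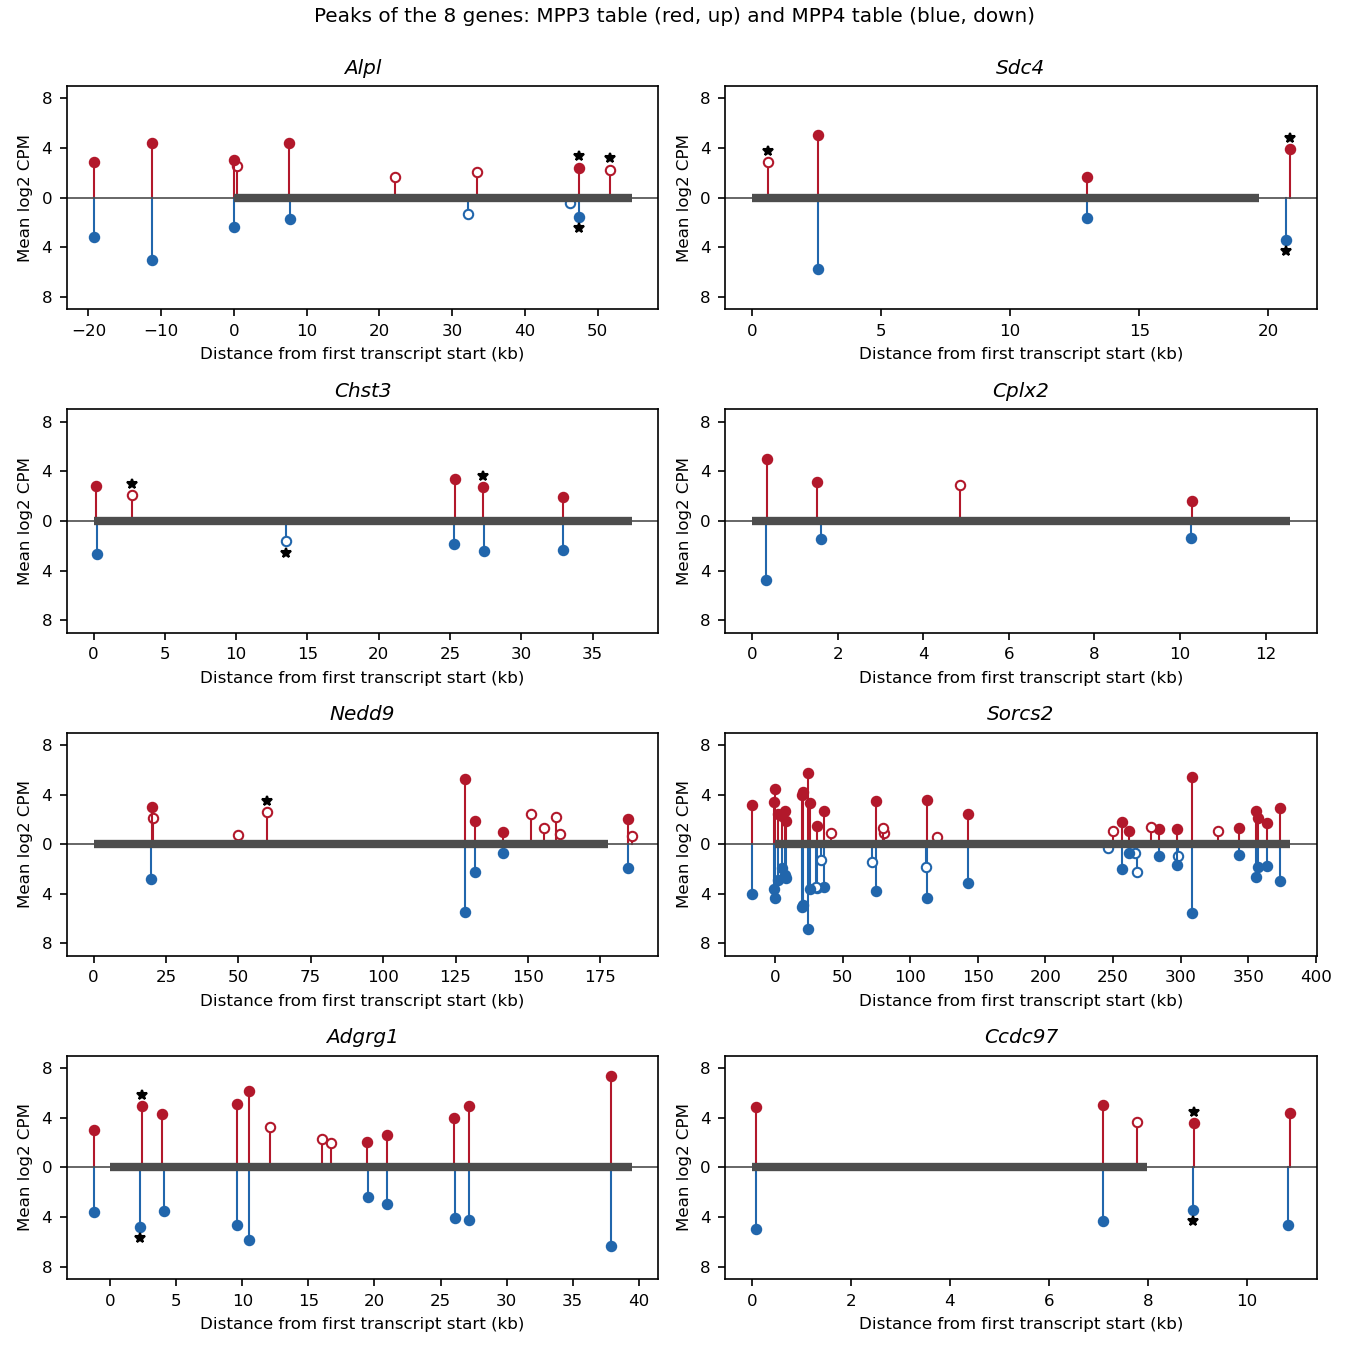
Each panel is 1 gene, with the distance of a peak center from its first transcript start in kb on the x axis and the mean log2 CPM on the y axis, drawn upward for MPP3 (red) and downward for MPP4 (blue). Open circles are peaks without a counterpart in the other table, stars mark the EBF1 consensus and the grey bar is the gene. *Nedd9* shows 8 open MPP3 circles and no open MPP4 circle.

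The 86 MPP3 peaks were mostly intronic, with 64 in introns, 8 in UTRs, 1 in a coding exon, 1 in a noncoding exon, 7 upstream and 5 downstream of a gene. A center within 1 kb of a start of the gene was present at 15 peaks, 17.4%. Over all MPP3 peaks, 26.8% lay within 1 kb of any start. *Sorcs2* had 1 of the 15 among its 33 peaks, which lowers the share, and the share without it was not taken. The median level of the 8 genes was 2.65 log2 CPM in MPP3 (all peaks 2.24) and 2.83 in MPP4 cells (all peaks 2.35). Per kb of peak length, which allows peaks of different length to be compared, the medians were 4.44 (all 4.11) and 4.57 (all 4.15) log2 CPM per kb. *Sorcs2* alone gave 33 of the 86 peaks, where the median gene had 2 and the 95th percentile was 9.

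**Figure D3:**
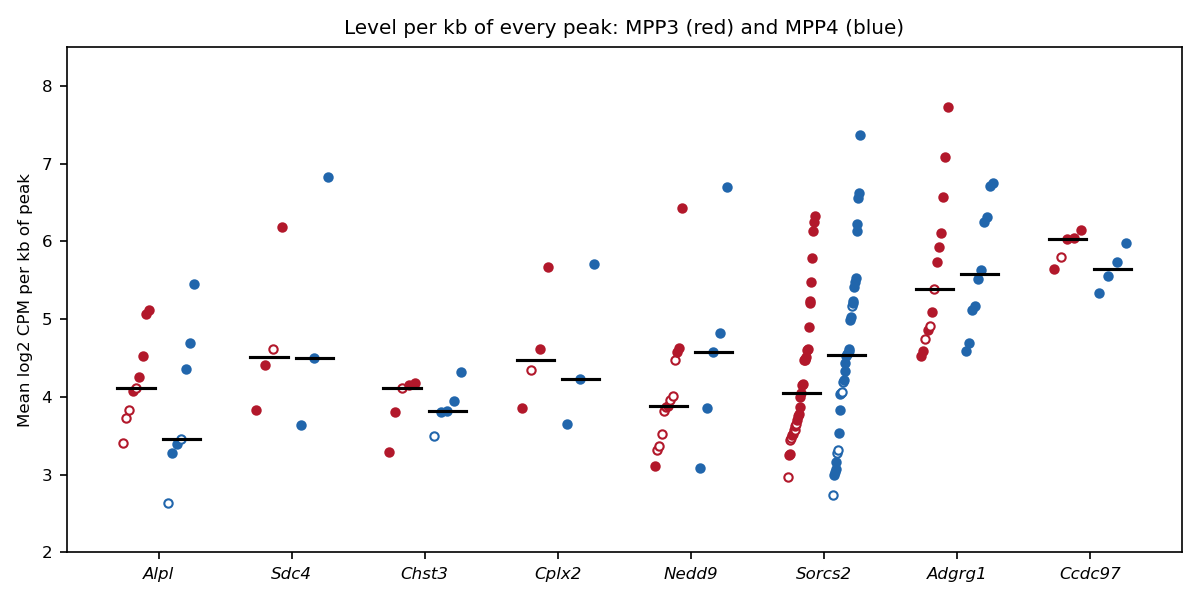
Mean log2 CPM per kb of every peak of the 8 genes, with MPP3 peaks in red, MPP4 peaks in blue, open circles for peaks without a counterpart in the other table and bars at the medians. *Ccdc97* has the highest MPP3 median, 6.03, and *Nedd9* the lowest, 3.88.

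*Alpl* (ENSMUSG00000028766.10, chr4:137741733-137796384, minus strand, 54.7 kb) had 9 MPP3 and 7 MPP4 peaks. Its start peak, chr4:137796212-137796574, had 3.06 log2 CPM in MPP3 and 2.38 in MPP4 cells. A neighboring MPP3 peak, chr4:137795775-137796111, in a noncoding exon 287 bp from a start, had 2.55 and no MPP4 peak. The highest MPP3 peak away from a start, chr4:137788456-137789066, lay in an intron 3390 bp upstream of the nearest start of the gene, and it differed most between the tables of all 60 shared peaks. It spanned 611 bp at 4.40 log2 CPM in MPP3 cells and 343 bp at 1.73 in MPP4 cells, a difference of 2.67, which lies at percentile 99.96 of all shared peaks. Per kb the levels were 5.11 and 3.27, a difference of 1.84 at percentile 99.94. The choice of the gene by lost MPP3 sites can favor such a rank, so it is only a description. This peak held 2 E-boxes, both in the printed stretch, and over its whole length no EBF1 consensus.

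The *Alpl* peaks with the EBF1 consensus lay toward the 3' end of the gene, both in introns. At chr4:137748747-137749063, with the letters TCCCTGGGGA in the middle of the peak, the levels were 2.42 in MPP3 and 1.55 in MPP4 cells. At chr4:137744513-137744874, with TCCCAGGGGA, the level was 2.27 in MPP3 cells and there was no MPP4 peak. Upstream of the gene the order of levels was the other way. The peak 11303 bp upstream, chr4:137807372-137808002, had 4.40 in MPP3 and 5.00 in MPP4 cells, and the peak 19306 bp upstream, just inside the 20 kb limit, had 2.84 and 3.17.

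*Chst3* (ENSMUSG00000057337.13, chr10:60181532-60219260, minus strand, 37.7 kb) had 5 peaks in each table, at levels from 1.90 to 3.38 log2 CPM in MPP3 and from 1.65 to 2.63 in MPP4 cells. Its highest MPP3 peak, chr10:60193639-60194213, 313 bp from an internal start, had 3.38 in MPP3 cells over 575 bp and 1.89 in MPP4 cells over 239 bp. Per kb of peak length the difference was 0.23. The peak at the 5' start of the gene had 2.81 and 2.63. The intronic peak chr10:60191759-60192128 had 2.72 and 2.41, and its EBF1 consensus CCCTGGGGA at 60192025 lay beyond the edge of the MPP4 peak, which ended at 60192018. The other EBF1 peak, chr10:60216415-60216658, had 2.07 in MPP3 cells and no MPP4 peak. One MPP4 peak without an MPP3 counterpart, chr10:60205640-60205919 at 1.65, held the EBF1 consensus as well.

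*Sdc4* (ENSMUSG00000017009.3, chr2:164424247-164443887, minus strand, 19.6 kb) had 4 MPP3 and 3 MPP4 peaks. The downstream peak chr2:164422699-164423401, the single one in the added stretch, spanned 703 bp and held 2 EBF1 matches and 5 E-boxes. Its levels were 3.90 log2 CPM in MPP3 cells and 3.40 in MPP4 cells, where the peak began only at 164422967 and thus left out the first EBF1 match and the first E-box. Per kb the order turned, with a difference of -0.09. It lay 20136 bp from the nearest *Sdc4* start and nearer, 17890 bp, to a start of *Matn4*, so its gene is an assignment by distance. The start peak, chr2:164443099-164443397, lay in an intron, 62 bp upstream of an internal start and 639 bp downstream of the first one. It had 2.87 in MPP3 cells and no MPP4 peak, with the EBF1 match TCCCCCGGGA near its center. The highest *Sdc4* peak, chr2:164441080-164441545 in an intron 1874 bp from a start, was lower in the MPP3 table than in the MPP4 table, at 5.08 and 5.72.

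*Adgrg1* (ENSMUSG00000031785.16, chr8:94974751-95014217, plus strand, 39.5 kb) had 13 MPP3 and 10 MPP4 peaks and 16 annotated transcripts, so that 6 peaks of each table lay within 1 kb of a start. Its peaks were high, with a median of 4.01 log2 CPM in MPP3 and 4.15 in MPP4 cells. The highest start peak, chr8:94985015-94985541, lay at an internal start, 10527 bp downstream of the first one, and had 6.16 and 5.82. The peak chr8:95012244-95013021 near the 3' end was the highest of the 8 genes, at 7.37 in MPP3 (percentile 99.7 of all MPP3 peaks) and 6.36 in MPP4 cells, and it was nearer to a start of *Adgrg3*, 5060 bp away. The EBF1 consensus TCCCACGGG stood in a UTR in the peak chr8:94976867-94977372, whose center was 10 bp from a start, with 4.94 and 4.81, or 5.92 and 6.31 per kb. Of the 3 intronic MPP3 peaks with no MPP4 peak, the highest, chr8:94986762-94986986, had 3.24 and the next, chr8:94990678-94990842, had 2.31.

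*Sorcs2* (ENSMUSG00000029093.14, chr5:36017180-36398139, minus strand, 381 kb) is the longest of the 8 genes and had 33 MPP3 and 34 MPP4 peaks, none with the EBF1 consensus. Its start peak, chr5:36398041-36398349, had 4.44 log2 CPM in MPP3 and 4.33 in MPP4 cells. Of 26 shared peaks, 17 were lower and 9 higher in the MPP3 table, with a median difference of -0.28, and per kb 16 were lower, with a median of -0.16. The lowest difference was at the intronic peak chr5:36367195-36367367, with 1.47 in MPP3 and 3.54 in MPP4 cells. The highest peak of the gene, chr5:36373230-36373890, also intronic, had 5.73 and 6.87. The 7 MPP3 peaks without an MPP4 peak were all weak, at 0.61 to 1.41, with chr5:36119880-36120090 at 1.41 and chr5:36318062-36318291 at 1.32 as the highest.

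*Nedd9* (ENSMUSG00000021365.15, chr13:41309581-41487362, minus strand, 178 kb) had 13 MPP3 but 5 MPP4 peaks, the widest gap in number of the 8 genes. Its start peak, chr13:41358776-41359219, lay at an internal start, 128365 bp downstream of the first one. It had 5.26 log2 CPM in MPP3 and 5.44 in MPP4 cells. The highest peak away from a start, chr13:41467156-41467485 in an intron, had 3.03 and 2.83. All 5 MPP4 peaks had an MPP3 counterpart, with differences from -0.39 to 0.27. The 8 MPP3 peaks without an MPP4 peak had 0.63 to 2.60, and 4 of them were at 2 log2 CPM or more. The highest of these, chr13:41427127-41427516 in an intron 59921 bp from the nearest *Nedd9* start, held the EBF1 consensus CCCAAGGGA and no E-box. The next highest, chr13:41336266-41336636, had 2.44 and held no EBF1 consensus.

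*Cplx2* (ENSMUSG00000025867.8, chr13:54371349-54383917, plus strand, 12.6 kb) had 4 MPP3 and 3 MPP4 peaks, none with the EBF1 consensus. Its start peak, chr13:54371381-54372000, had 4.99 log2 CPM in MPP3 and 4.76 in MPP4 cells. The intronic peak chr13:54372692-54373050 had 3.13 over 359 bp in MPP3 and 1.49 over 150 bp in MPP4 cells, and the difference of 1.64 shrank to 0.38 per kb. The peak chr13:54376039-54376393, 4867 bp into the gene, had 2.86 in MPP3 cells and no MPP4 peak. All 3 shared *Cplx2* peaks were higher in the MPP3 table, but per kb 2 of 3 were, the start peak being at 5.68 and 5.71.

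*Ccdc97* (ENSMUSG00000002608.8, chr7:25711106-25719088, minus strand, 7.98 kb) is the shortest of the 8 genes and had 5 MPP3 and 4 MPP4 peaks, all above 3.4 log2 CPM in both tables. Its start peak, chr7:25718773-25719223, had 4.88 in MPP3 and 4.97 in MPP4 cells. The highest peak away from the start, chr7:25711763-25712232 in a UTR, had 5.06 and 4.31. The EBF1 consensus TCCCCAGGG lay downstream of the gene in chr7:25710050-25710282, with 3.55 and 3.43 and without an E-box. The peak chr7:25711202-25711425 in a UTR had 3.64 in MPP3 cells, the highest level of the 26 MPP3 peaks of the 8 genes that had no MPP4 peak.

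Over all 60 shared peaks of the 8 genes, the level in the MPP3 table minus that in the MPP4 table had a median of 0.02 log2 CPM, with 31 peaks above and 29 below 0. Over all 66324 shared MPP3 peaks the median was -0.04 and the range from the 5th to the 95th percentile was -1.07 to 0.88. The share above 0 was 47.0% of these and 51.7% of the 60 peaks. Per kb of peak length it was 51.6 and 51.7%. A difference of 1 or more was present at 4 peaks (6.67%, beside 3.78% of all), of *Alpl*, *Cplx2*, *Chst3* and *Adgrg1*. A difference of -1 or less was present at 3 peaks (5%, beside 6.05%), all of *Sorcs2*. Per kb of peak length, 2 peaks were at 1 or more (3.33%, beside 1.04% of all), of *Alpl* and *Adgrg1*, and 4 at -1 or less (6.67%, beside 1.60%), again all of *Sorcs2*. The sign of the difference turned between the scales at 16 of the 60 peaks. Without *Sorcs2*, 22 of 34 shared peaks were higher and 12 lower in the MPP3 table, with a median of 0.19. Per kb 21 were higher, with a median of 0.05. Leaving out *Sorcs2*, whose shared peaks were mostly lower, by itself raises the share of higher peaks, and the remainder was not tested. Of the 60 MPP3 peaks, 11 were at least 100 bp longer than their MPP4 counterpart (18.3%, beside 8.17% of all) and 6 at least 100 bp shorter (10%, beside 10.9%). The longer ones include those of *Alpl*, *Cplx2*, *Chst3* and *Sdc4* described above, and a longer peak gathers more counts. The genes were chosen by lost MPP3 sites, which can favor higher and longer peaks in the MPP3 table. The shares of such peaks are therefore only a description.

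**Figure D4:**
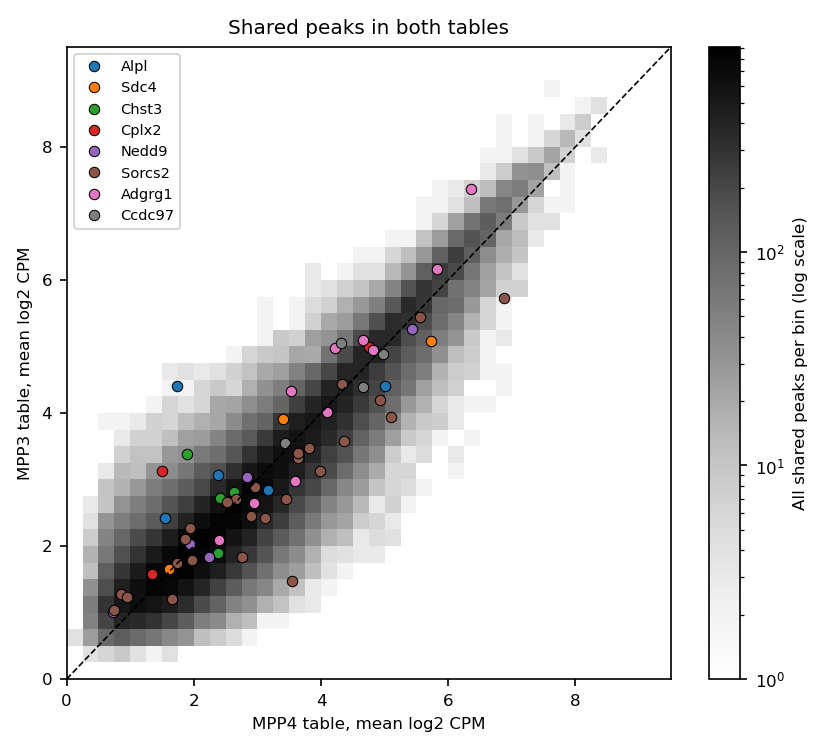
Mean log2 CPM in the MPP3 table (y axis) against the MPP4 table (x axis) for the 60 shared peaks of the 8 genes, in color by gene, over the density of all shared peaks in grey (log color scale), with equal levels on the dashed line. The *Alpl* peak at 4.40 and 1.73 stands farthest above the line and the *Sorcs2* peak at 1.47 and 3.54 farthest below it. The genes were chosen by lost MPP3 sites, which can favor peaks above the line.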

How the data were processed

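Accessibility was measured by ATAC-seq with 2 libraries for each genotype and population (groups from the labels). The submitters' processing notes name Cutadapt 2.10, FastQC 0.11.9, MultiQC 1.8, deepTools, MACS2 2.2.7.1, bedtools, edgeR 3.32.0, R 4.0.3 and mm10. The authors called peaks per genotype on merged replicates, merged them within a cell type and deposited 1 table for each, whose log2 values are the mean log2 CPM of each peak over 4 libraries. Another 4 deposited columns per table hold the authors' genotype comparison (log2 fold change, F statistic, p-value and FDR) and were not used. No value per library was used, and the number of unused columns with values of single samples was 0, so exact depth and precision per sample are unknown here and no test was made.

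Peak positions were compared with GENCODE vM21, and sequence was read from GRCm38.p6. Peaks were shared when at least 1 bp was in common. Levels per kb add log2 of 1 kb over the peak length to the log2 CPM. Shares have exact Clopper-Pearson 95% intervals. Python 3.11.15, scipy 1.17.1, pandas 2.3.3, numpy 2.4.6 and, for plots, matplotlib 3.10.9 were used, and the assignment and motif search were tested on simulated data. Members and lists were chosen with earlier results of these data known. A gene of the B program and B cell marker lists is not reported here and was left out of their counts. Peaks named one by one were, per gene, the highest start peak in each table, the highest MPP3 peak over 1 kb from a start, every MPP3 peak with the EBF1 consensus and the 2 highest MPP3 peaks without an MPP4 peak, and for *Sdc4* those in the added stretch. Other peaks were named after their values were seen. Alternatives varied the gene assignment, annotation, overlap, consensus, searched window, level scale and peak set.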

Additional observations from a re-analysis of the deposited data

How the results depend on the processing

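Of 20 alternatives, 16 kept the value within its counting interval or, for a count, within 1.5 times. The other 4 moved it. Requiring both flanking bases gave an EBF1 consensus in 3.49% of the MPP3 peaks of the 8 genes, and CAGGTG alone gave an E-box in 33.7%, since fewer letters match by construction. Per kb, the median level became 4.44 log2 CPM in MPP3 and 4.57 in MPP4 cells, a change of unit. Every peak inside the genes, without the windows and without the closest-transcript rule, gave 84 MPP3 and 71 MPP4 peaks. Every peak in the genes or their windows gave 112 and 99. With the closest-transcript rule over protein-coding genes only there were 102 and 89. The effect of the windows alone was not taken. The share of MPP3 peaks without an MPP4 peak ranged from 23.0 to 33.8%. It was 23.0%, beside 6.96% of all, at 2 log2 CPM or more. Over 1 kb from a start it was 33.8%, beside 28.3% of all. The gap to all peaks thus depended on the setting. No paired analysis was possible because each table holds 1 mean per peak and no value per library, and leaving out single replicates could not be run for the same reason. The unknown depth of each library limits how far a missing peak can be read, since a weak site may have escaped peak calling in 1 population.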
